A study of Homo sapiens with 24 samples.

Results

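The homologous recombination and Fanconi anaemia genes described here are the rows of the deposited table whose symbol is among 39 named genes, and 38 of the 39 were found among its 14119 genes. The gene MRE11 is listed under its older symbol MRE11A and was therefore not a member; its values are given beside those of its complex. RNA was measured in xenograft tumours, grown in mice, of COLO320DM, a human colorectal adenocarcinoma line, and poly(A) RNA was sequenced from 3 libraries in each of 8 groups. Each line carried a hairpin labelled sh1487 or shNT, with or without a construct labelled only cDNA, and each was taken after a diet with doxycycline or without it. The groups were sh1487 on doxycycline and sh1487 without it, shNT on doxycycline and shNT without it, and the same 4 for the lines that also carried the cDNA. All carry the label 72 hr. The doxycycline diet started at a mean tumour size of 150 mm3, and harvest followed on day 3. The labels give neither the target of sh1487 nor the identity of the cDNA, nor how many clones made up a line, and the mouse host and its age are not given. The series title names β-catenin, which CTNNB1 encodes.

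Homologous recombination repairs a broken chromosome by copying the intact sister after DNA replication, and it also protects stalled replication forks. The Fanconi anaemia pathway works with it to remove crosslinks between the strands: a core complex attaches ubiquitin to the FANCD2 and FANCI pair, and nucleases and recombination proteins then finish the repair. Many of these genes are known to be transcribed mainly in the S and G2 phases of the cell cycle, so that their RNA is a familiar companion of proliferation in tumours. In bulk tumour RNA, fewer cells that make a transcript and less of it in each cell cannot be told apart.

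Between 44004848 and 80202279 reads per library were recovered from the table, whose unit, CPM, scales the reads of a gene relative to an effective library size. A count of 3 reads stood at 0.0368 to 0.0711 CPM, which covers counting error only, and every member exceeded it in every library. CTNNB1 (chromosome 3, 41194741 to 41260096, GRCh38) had 42.5, 45.6 and 41.9 CPM in sh1487 libraries on doxycycline, against 215, 230.2 and 234 CPM without it (log2 change −2.36 ± 0.14 SE, limma adjusted p = 5.44e-13). CTNNB1 in shNT libraries had 313, 325 and 292 CPM on doxycycline, against 257, 261 and 251.5 CPM without it (log2 change 0.27 ± 0.14 SE, limma adjusted p = 0.13). CTNNB1 with cDNA had 610.1, 601 and 569.6 CPM in sh1487 libraries on doxycycline, against 527, 536 and 460.1 CPM without it. CTNNB1 in the shNT line with cDNA had 494, 587 and 331 CPM on doxycycline, against 701, 746 and 525 CPM without it. The share of mitochondrially encoded reads ran from 9.98% to 21.5%, and the highest share belonged to replicate 3 of shNT with cDNA on doxycycline. Of 8 markers fixed for the line and for colon epithelium 7 are in the table. CDX2, an intestinal transcription factor, averaged 1007 CPM in sh1487 libraries on doxycycline and 1944 CPM without it, and MYC 1595 and 3700 CPM. The other listed markers were higher on doxycycline in this line. The keratins KRT8 and KRT18 averaged 428 against 148 and 123 against 66 CPM. EPCAM averaged 1.45 against 0.568, VIL1 1.51 against 0.0472 and the epithelial cadherin CDH1 1.12 against 0.228 CPM. Of 8 fibroblast and pericyte markers 5 are in the table, with summed levels of 38.1 to 41.8 CPM in sh1487 libraries on doxycycline, against 63.9 to 68 CPM without it, and of 127 to 151 CPM in shNT libraries on doxycycline, against 104 to 113 CPM without it. Within this list COL3A1, a fibrillar collagen, made up most of the sum, at 29.7 CPM in sh1487 libraries on doxycycline and 57.4 CPM without it (means of 3). Means of LUM, ACTA2 and PDGFRB were instead higher on doxycycline there, at 0.637 against 0.29, 1.36 against 0.4 and 2.31 against 1.82 CPM. Of 5 endothelial markers only CLDN5 is listed, at most 1.33 CPM in any library. Of 7 leukocyte markers PTPRC and CSF1R are listed. Summed, they averaged 48.2 and 46 CPM in sh1487 libraries on and off doxycycline, and 30.5 and 36.9 CPM in shNT libraries. Of 4 erythroid markers HBA1 and HBA2 are listed. Their sums averaged 8.42 and 13.2 CPM in sh1487 libraries on and off doxycycline, and 2.1 and 1.3 CPM in shNT libraries. The part of all these markers in the results below was not tested. Whether replicates came from separate tumours is not stated, so p-values measure the spread between these libraries, which may be technical.

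With sh1487 and doxycycline, recombination and Fanconi genes fell almost throughout. Of the 38 members 36 fell and none rose in the line without cDNA, where 37.5% of the 13832 genes tested fell and 37.4% rose. No member passed upward at an unadjusted p under 0.05 either, or with edgeR or DESeq2 on recovered reads. By at least 2-fold 24 members fell, against 9.02% of all genes. The median log2 change of the members was −1.20, beside 0.01 over all genes tested, and it ran from −2.32 for XRCC2 to 0.11 for SLX4. In 36 members every library on doxycycline lay below every library without it, which held for 41.8% of all genes. The pair that did not pass was RAD52 (−0.05 ± 0.084 SE, limma adjusted p = 0.629) and SLX4 (0.11 ± 0.10 SE, limma adjusted p = 0.335). These tests used limma on log2 of CPM plus 1, with p adjusted over all genes tested and a threshold of 0.05. With library totals taken without mitochondrial genes, which moves the median of all genes to 0.13, NBN no longer passed and SLX4 passed upward.

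**Figure D1:**
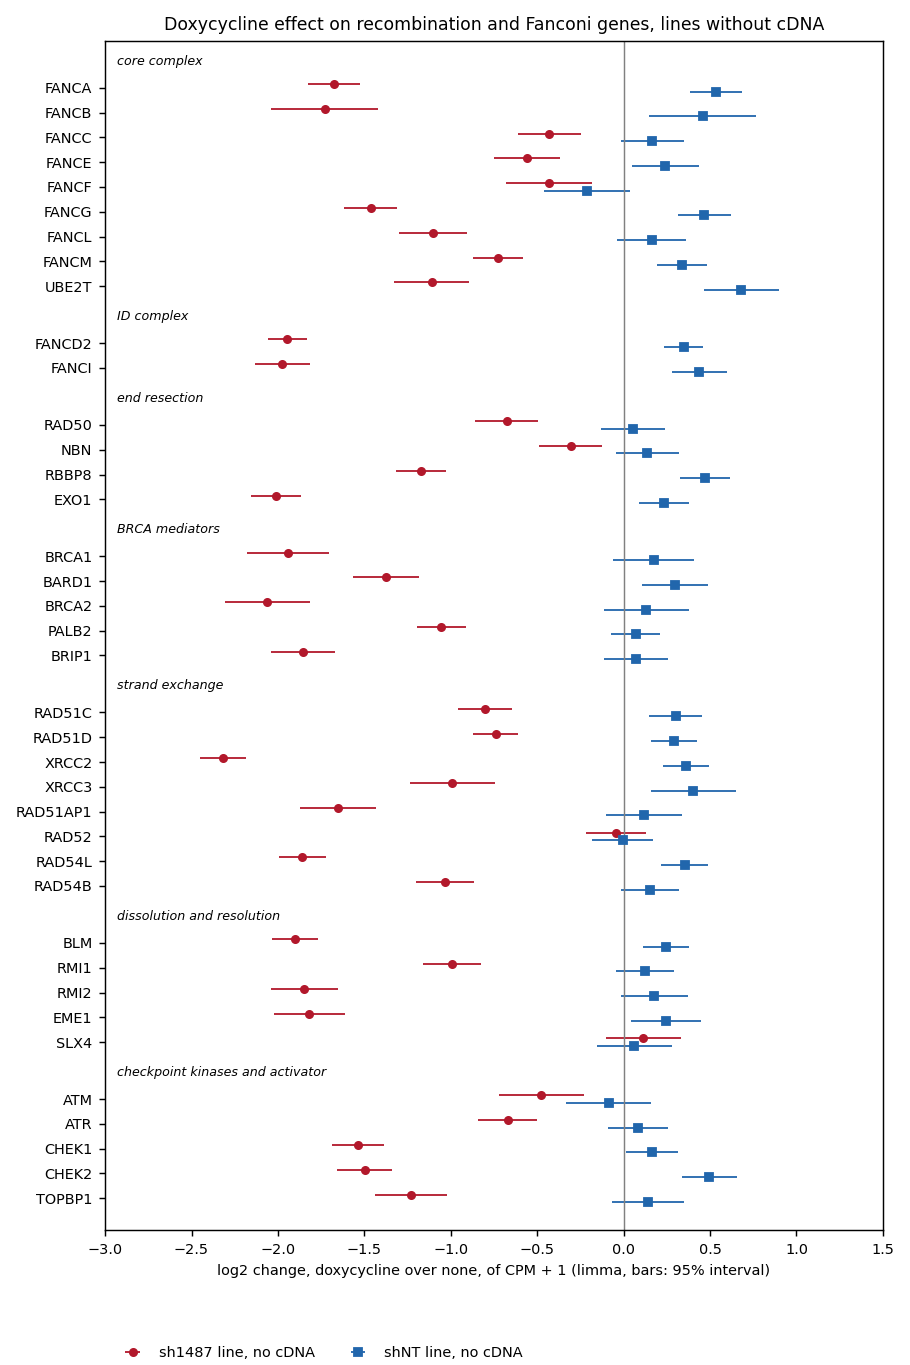
Log2 change of each of the 38 members with doxycycline (x axis, of CPM + 1) in the sh1487 line (circles) and the shNT line (squares), both without cDNA, grouped by role; bars are 95% intervals from limma, 3 libraries a group. All sh1487 points except RAD52 and SLX4 lie below 0 with intervals that leave it out, and 18 of the shNT points passed the test as rises.

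With shNT and doxycycline, by contrast, 18 members rose and none fell, where 18.5% of all genes rose and 18.7% fell. No member passed downward at an unadjusted p under 0.05, or with edgeR or DESeq2. The median log2 change was 0.20, running from −0.21 for FANCF to 0.68 for UBE2T, and 23 members had every library on doxycycline above every library without it (23.7% of all genes). UBE2T rose most (0.68 ± 0.10 SE, limma adjusted p = 2.87e-05), ahead of FANCA (0.54 ± 0.072 SE, limma adjusted p = 5.92e-06) and CHEK2 (0.50 ± 0.076 SE, limma adjusted p = 2.87e-05). The calls of FANCE, FANCB, BARD1, EXO1 and XRCC3 were lost when single libraries were left out: FANCE without replicate 1 or 2 of either group, FANCB and XRCC3 without replicate 1 on doxycycline, FANCB also without replicate 3 off it, and BARD1 and EXO1 without replicate 3 of either group.

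The difference between these effects, sh1487 minus shNT, was below 0 past the test for 35 of 38 members and above it for none, against 34.4% and 36.2% of all genes; no member passed upward at an unadjusted p under 0.05, with edgeR or with DESeq2. At 2-fold or more below 0 stood 29 members, against 11.5% of all genes. The median difference was −1.66 on the log2 scale, beside 0.03 over all genes. It was largest for XRCC2 (−2.68 ± 0.09 SE), FANCI (−2.41 ± 0.11), FANCD2 (−2.29 ± 0.076), EXO1 (−2.25 ± 0.10) and RAD54L (−2.21 ± 0.093), with limma adjusted p of 6.98e-17, 8.71e-15, 6.39e-17, 6.59e-15 and 3.03e-15. At the other end stood NBN (−0.44 ± 0.12 SE, limma adjusted p = 0.00325) and ATM (−0.39 ± 0.17 SE, limma adjusted p = 0.0417). FANCF (−0.22 ± 0.17 SE, limma adjusted p = 0.252), RAD52 (−0.04 ± 0.12 SE, limma adjusted p = 0.773) and SLX4 (0.05 ± 0.15 SE, limma adjusted p = 0.773) did not pass, with 95% intervals of −0.57 to 0.13, −0.29 to 0.21 and −0.26 to 0.36. The call of ATM was lost in 13 of 22 alternative settings, among them the removal of single libraries: all but replicate 2 of shNT without doxycycline and replicate 3 of sh1487 on doxycycline ended it when left out.

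The Fanconi core complex recruits the conjugating enzyme UBE2T to the ubiquitin ligase FANCL. All 9 of its members, counting UBE2T, fell with sh1487, with a median log2 change of −1.10, and 6 of them rose with shNT. Over all genes tested these shares were 37.5% and 18.5%. The large subunit FANCA lies on chromosome 16, 89737549 to 89816657 (GRCh38). FANCA had 15.3, 16.1 and 14.7 CPM in sh1487 libraries on doxycycline, against 49.6, 48.9 and 55.5 CPM without it, with no overlap. FANCA in shNT libraries was at 90.1, 83.7 and 79.1 CPM on doxycycline, against 56.3, 56.7 and 60.2 CPM without it, with no overlap. The sh1487 change was a fall (log2 change −1.67 ± 0.072 SE, limma adjusted p = 2.36e-15). UBE2T had 26.3, 24.5 and 24 CPM in sh1487 libraries on doxycycline, against 52.6, 55.8 and 56.6 CPM without it, with no overlap. Of UBE2T, shNT libraries held 55.3, 55.1 and 60.8 CPM on doxycycline, against 31.9, 35.5 and 38.6 CPM without it, with no overlap. UBE2T was the member whose shNT rise was largest, and its sh1487 change was a fall (log2 change −1.11 ± 0.10 SE, limma adjusted p = 2.14e-09). FANCF, an adaptor subunit, had a smaller change. FANCF had 12.4, 12.2 and 12.3 CPM in sh1487 libraries on doxycycline, against 15.6, 18.6 and 16.7 CPM without it, with no overlap. FANCF in shNT libraries was at 6.61, 7.86 and 6.77 CPM on doxycycline, against 7.54, 8.43 and 9.09 CPM without it, with overlap. Its sh1487 change was a fall (log2 change −0.43 ± 0.12 SE, limma adjusted p = 0.00264), and in the shNT line its difference did not pass (−0.21 ± 0.12 SE, limma adjusted p = 0.173). Among the other subunits, FANCB averaged 3.65 ± 0.469 CPM in sh1487 libraries on doxycycline and 14.4 ± 0.316 CPM without it (SD, n = 3 each). FANCG averaged 11.4 ± 0.641 and 33.2 ± 1.99 CPM in these groups, and the ligase FANCL 32.6 ± 1.65 and 71.2 ± 6.4 CPM. Smaller falls were those of FANCM, the translocase that anchors the complex on DNA (−0.73 ± 0.069 SE), FANCE, which contacts FANCD2 (−0.56 ± 0.092), and FANCC (−0.43 ± 0.088), with limma adjusted p of 2.4e-09, 1.07e-05 and 0.000133. FANCA shares 23.6% of its exon bases with ZNF276 on the opposite strand, and FANCL 18.7% with VRK2; how strand was used in counting is not given in the sources used here.

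FANCD2 and FANCI form the clamp that the core complex ubiquitinates, and their RNAs fell together. FANCD2 lies on chromosome 3, 10026414 to 10101930, and FANCI on chromosome 15, 89243949 to 89317261 (GRCh38). FANCD2 had 9.8, 11.1 and 10.8 CPM in sh1487 libraries on doxycycline, against 42.3, 42.8 and 45.5 CPM without it, with no overlap. FANCD2 in shNT libraries was at 75.4, 76.8 and 73.1 CPM on doxycycline, against 57.8, 59.4 and 59.3 CPM without it, with no overlap. In the sh1487 line FANCD2 was left at 24.3% of its mean without doxycycline, a fall (log2 change −1.94 ± 0.054 SE, limma adjusted p = 8.71e-19). FANCI had 37, 36.7 and 37.3 CPM in sh1487 libraries on doxycycline, against 139.7, 154 and 152 CPM without it, with no overlap. Of FANCI, shNT libraries held 143, 145 and 133 CPM on doxycycline, against 104, 109.6 and 96 CPM without it, with no overlap. In the sh1487 line FANCI was left at 24.9%, a fall (log2 change −1.97 ± 0.076 SE, limma adjusted p = 3.02e-16). FANCD2, BRCA1 and CHEK2 are known to have partial pseudogene copies, and how reads matching several places were counted is not given in the sources used here, so their levels are uncertain.

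End resection trims a break to a single-stranded tail; the MRE11, RAD50 and NBN complex starts it with RBBP8, and the nuclease EXO1 extends it. All 4 members of this step fell with sh1487, where 37.5% of all genes fell, but unequally. EXO1 had 14.7, 15.7 and 16.4 CPM in sh1487 libraries on doxycycline, against 64.6, 67 and 66.2 CPM without it, with no overlap. EXO1 in shNT libraries was at 53.5, 57 and 60.3 CPM on doxycycline, against 47.8, 51.3 and 45.9 CPM without it, with no overlap. For EXO1 the sh1487 change was a fall (log2 change −2.01 ± 0.07 SE, limma adjusted p = 4.18e-17). RAD50 had 71.8, 70.5 and 74 CPM in sh1487 libraries on doxycycline, against 116, 116 and 116 CPM without it, with no overlap. Of RAD50, shNT libraries held 114, 115 and 128 CPM on doxycycline, against 118, 119.9 and 106 CPM without it, with overlap. RAD50, the ATPase of the complex, shares 79.7% of its exon bases with AC116366.3 on its own strand and was left at 62.2% of its sh1487 mean without doxycycline, a fall (log2 change −0.68 ± 0.089 SE, limma adjusted p = 4.13e-07). NBN had 58.3, 53.8 and 58.5 CPM in sh1487 libraries on doxycycline, against 71.9, 71.3 and 68.3 CPM without it, with no overlap. NBN in shNT libraries was at 95.4, 97.6 and 103 CPM on doxycycline, against 92.7, 92.6 and 83.6 CPM without it, with no overlap. The fall of NBN was the smallest among members that passed (−0.31 ± 0.088 SE, limma adjusted p = 0.00346). RBBP8 averaged 21.8 ± 0.323 CPM in sh1487 libraries on doxycycline and 50.4 ± 1.59 CPM without it (SD, n = 3 each), a fall (log2 change −1.17 ± 0.07 SE, limma adjusted p = 7.37e-13). The row listed as MRE11A, whose gene ID the reference table pairs with MRE11, had 22.6, 20.8 and 24.6 CPM in sh1487 libraries on doxycycline, against 70.7, 74 and 74.7 CPM without it (log2 change −1.65 ± 0.062 SE, limma adjusted p = 1.9e-16). MRE11A in shNT libraries had 82.6, 84.4 and 93.1 CPM on doxycycline, against 81.6, 86.6 and 80.8 CPM without it. Within this complex the nuclease transcript therefore had the largest change of the 3.

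The BRCA proteins prepare the resected tail for strand exchange. All 5 members of this step fell with sh1487 (median log2 change −1.86), against 37.5% of all genes. BARD1 alone among them rose with shNT, where 18.5% of all genes rose. BRCA1 had 17.6, 16.9 and 19.3 CPM in sh1487 libraries on doxycycline, against 72.8, 72.6 and 69.6 CPM without it, with no overlap. BRCA1 in shNT libraries was at 99.2, 102 and 96.7 CPM on doxycycline, against 89.8, 91 and 83.2 CPM without it, with no overlap. BRCA1, a ubiquitin ligase on chromosome 17, 43044295 to 43170245 (GRCh38), fell (log2 change −1.94 ± 0.11 SE, limma adjusted p = 4.95e-13) in the sh1487 line. BARD1 had 6.19, 5.36 and 5.71 CPM in sh1487 libraries on doxycycline, against 16, 17.4 and 16.1 CPM without it, with no overlap. Of BARD1, shNT libraries held 22.3, 21.6 and 24 CPM on doxycycline, against 17.9, 19.6 and 17.3 CPM without it, with no overlap. BARD1 is the partner of BRCA1, and its sh1487 change was a fall (log2 change −1.37 ± 0.092 SE, limma adjusted p = 5.54e-12). BRCA2 had 14.2, 13.6 and 13.9 CPM in sh1487 libraries on doxycycline, against 60.2, 60.6 and 63.1 CPM without it, with no overlap. BRCA2 in shNT libraries was at 47.4, 46 and 51.6 CPM on doxycycline, against 42.6, 48.9 and 40.9 CPM without it, with overlap. BRCA2, which acts on the single-stranded tail, was left at 22.7% of its sh1487 mean without doxycycline, a fall (log2 change −2.06 ± 0.12 SE, limma adjusted p = 3.63e-13). PALB2 had 16.6, 14.6 and 16 CPM in sh1487 libraries on doxycycline, against 32.9, 34.5 and 33.8 CPM without it, with no overlap. Of PALB2, shNT libraries held 30.5, 31 and 32.9 CPM on doxycycline, against 29.3, 31 and 29.5 CPM without it, with overlap. PALB2 bridges BRCA1 and BRCA2, and among these genes it had the smallest sh1487 change, a fall (log2 change −1.05 ± 0.068 SE, limma adjusted p = 3.17e-12). BRIP1 had 15.7, 14.5 and 16 CPM in sh1487 libraries on doxycycline, against 58.7, 60.2 and 56.4 CPM without it, with no overlap. BRIP1 in shNT libraries was at 59.5, 60.5 and 70.4 CPM on doxycycline, against 60.4, 62.8 and 57.6 CPM without it, with overlap. BRIP1, a helicase that binds BRCA1, fell (log2 change −1.86 ± 0.089 SE, limma adjusted p = 1.41e-14) with sh1487.

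In strand exchange the tail invades the intact sister, a step served by XRCC2, XRCC3, RAD51C, RAD51D, RAD51AP1, RAD52, RAD54L and RAD54B. Of these 8 members 7 fell with sh1487 and 5 rose with shNT, against 37.5% and 18.5% of all genes. XRCC2 had 15.2, 14.8 and 14.7 CPM in sh1487 libraries on doxycycline, against 82.1, 77.6 and 75.5 CPM without it, with no overlap. XRCC2 in shNT libraries was at 98.5, 99.1 and 106 CPM on doxycycline, against 80.4, 79.7 and 76 CPM without it, with no overlap. XRCC2, which forms a complex with RAD51D and lies on chromosome 7, 152644779 to 152676165 (GRCh38), had the largest change of any member and was left at 19% of its sh1487 mean without doxycycline, a fall (log2 change −2.32 ± 0.064 SE, limma adjusted p = 6.99e-19). RAD51C, RAD51D and XRCC3, of the same family, moved less with sh1487: RAD51C by −0.80 ± 0.074 (SE), RAD51D by −0.74 ± 0.063 and XRCC3 by −0.99 ± 0.12 on the log2 scale, with limma adjusted p of 1.59e-09, 4.15e-10 and 1.03e-07. RAD54L had 7.48, 7.57 and 7.54 CPM in sh1487 libraries on doxycycline, against 30.2, 29 and 30.7 CPM without it, with no overlap. Of RAD54L, shNT libraries held 28.4, 26.7 and 25 CPM on doxycycline, against 21.1, 20.3 and 20.6 CPM without it, with no overlap. RAD54L, a DNA translocase of strand exchange, fell (log2 change −1.86 ± 0.066 SE, limma adjusted p = 5.98e-17) with sh1487. RAD51AP1 had 15.4, 14.9 and 16.2 CPM in sh1487 libraries on doxycycline, against 46.8, 52.6 and 54 CPM without it, with no overlap. RAD51AP1 in shNT libraries was at 50.8, 51.8 and 62.3 CPM on doxycycline, against 49.3, 55.1 and 47 CPM without it, with overlap. RAD51AP1, which stimulates strand invasion, fell (log2 change −1.65 ± 0.11 SE, limma adjusted p = 2.64e-12) with sh1487. RAD52 had 19.1, 19.8 and 19 CPM in sh1487 libraries on doxycycline, against 19.4, 20.3 and 20.2 CPM without it, with overlap. Of RAD52, shNT libraries held 20.4, 19.2 and 19.1 CPM on doxycycline, against 19.1, 20.2 and 19.7 CPM without it, with overlap. RAD52, known for annealing single strands, did not pass in either line, with a 95% interval of −0.22 to 0.13 for its sh1487 change and −0.18 to 0.17 for its shNT change. RAD54B was low, at 1.92 ± 0.123 CPM in sh1487 libraries on doxycycline and 4.99 ± 0.566 CPM without it (SD, n = 3 each), a fall (log2 change −1.04 ± 0.081 SE, limma adjusted p = 9.62e-11). XRCC3 shares 76.7% of its exon bases with KLC1 and RAD54L 25.1% with LRRC41, both on the opposite strand, and RAD54B 59.1% with FSBP on its own strand, so that their levels are uncertain.

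Joined DNA molecules are then separated, either by the BLM helicase with RMI1 and RMI2 or by nucleases such as MUS81 with EME1, which SLX4 brings together. Of these 5 members 4 fell with sh1487, against 37.5% of all genes. BLM had 11.7, 11.2 and 12.1 CPM in sh1487 libraries on doxycycline, against 45.6, 47.3 and 46.3 CPM without it, with no overlap. BLM in shNT libraries was at 42.2, 44.9 and 46.9 CPM on doxycycline, against 37.7, 39 and 36 CPM without it, with no overlap. BLM fell (log2 change −1.90 ± 0.063 SE, limma adjusted p = 2.06e-17) with sh1487. RMI2 had 12.9, 11.2 and 10.9 CPM in sh1487 libraries on doxycycline, against 44, 44.2 and 45.1 CPM without it, with no overlap. Of RMI2, shNT libraries held 50.2, 54.1 and 54.8 CPM on doxycycline, against 46.1, 43.9 and 50.7 CPM without it, with overlap. RMI2, a small subunit of the BLM complex, fell (log2 change −1.85 ± 0.093 SE, limma adjusted p = 3.88e-14) with sh1487. RMI1 averaged 28 ± 1.88 CPM in sh1487 libraries on doxycycline and 56.6 ± 3.6 CPM without it (SD, n = 3 each), a fall (log2 change −0.99 ± 0.081 SE, limma adjusted p = 1.89e-10). EME1 averaged 5.13 ± 0.589 CPM in sh1487 libraries on doxycycline and 20.6 ± 1.46 CPM without it (SD, n = 3 each), a fall (log2 change −1.82 ± 0.10 SE, limma adjusted p = 1.33e-13). EME1 shares 16.4% of its exon bases with LRRC59 on the opposite strand. SLX4 had 21, 21.7 and 22.1 CPM in sh1487 libraries on doxycycline, against 22.9, 18 and 19.1 CPM without it, with overlap. SLX4 in shNT libraries was at 24.7, 20.6 and 21.8 CPM on doxycycline, against 23.8, 19.4 and 20.9 CPM without it, with overlap. SLX4, the nuclease scaffold, did not pass, with a 95% interval of −0.10 to 0.33 for its log2 change with sh1487.

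The checkpoint kinases signal damage and replication stress: ATM answers to breaks and activates CHEK2, and ATR, with its activator TOPBP1, answers to single-stranded DNA and activates CHEK1. All 5 members fell with sh1487, against 37.5% of all genes, and the downstream kinases fell more than the upstream ones. ATM had 70.8, 64.5 and 73.4 CPM in sh1487 libraries on doxycycline, against 94.2, 96.6 and 100.3 CPM without it, with no overlap. ATM in shNT libraries was at 84.6, 82.3 and 84 CPM on doxycycline, against 89.2, 99.2 and 79.3 CPM without it, with overlap. ATM was left at 71.7% of its sh1487 mean without doxycycline, a fall (log2 change −0.48 ± 0.12 SE, limma adjusted p = 0.00098). ATR had 27, 24.6 and 27.5 CPM in sh1487 libraries on doxycycline, against 41, 42.1 and 44.5 CPM without it, with no overlap. Of ATR, shNT libraries held 56.3, 56.3 and 56.3 CPM on doxycycline, against 52.6, 58.3 and 48.7 CPM without it, with overlap. ATR was left at 62%, a fall (log2 change −0.67 ± 0.083 SE, limma adjusted p = 1.78e-07). CHEK1 had 18.7, 17.7 and 19.6 CPM in sh1487 libraries on doxycycline, against 53.8, 58 and 56.4 CPM without it, with no overlap. CHEK1 in shNT libraries was at 50.2, 52.1 and 54.8 CPM on doxycycline, against 46.1, 48 and 45.5 CPM without it, with no overlap. CHEK1 was left at 33.3%, a fall (log2 change −1.54 ± 0.073 SE, limma adjusted p = 1.29e-14). CHEK2 had 19.2, 19.4 and 17.8 CPM in sh1487 libraries on doxycycline, against 50.5, 56.4 and 58.1 CPM without it, with no overlap. Of CHEK2, shNT libraries held 61.1, 67.1 and 64.5 CPM on doxycycline, against 43, 46.1 and 46.6 CPM without it, with no overlap. CHEK2 was left at 34.2%, a fall (log2 change −1.50 ± 0.076 SE, limma adjusted p = 4.32e-14). The 95% intervals of the log2 changes ran over −0.72 to −0.23 for ATM and −0.84 to −0.50 for ATR, and over −1.69 to −1.39 for CHEK1 and −1.66 to −1.34 for CHEK2, without overlap between the upstream and the downstream kinases; the difference between genes was not tested. TOPBP1 averaged 82 ± 3.09 CPM in sh1487 libraries on doxycycline and 193 ± 3.64 CPM without it (SD, n = 3 each), a fall (log2 change −1.23 ± 0.10 SE, limma adjusted p = 1.88e-10).

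**Figure D2:**
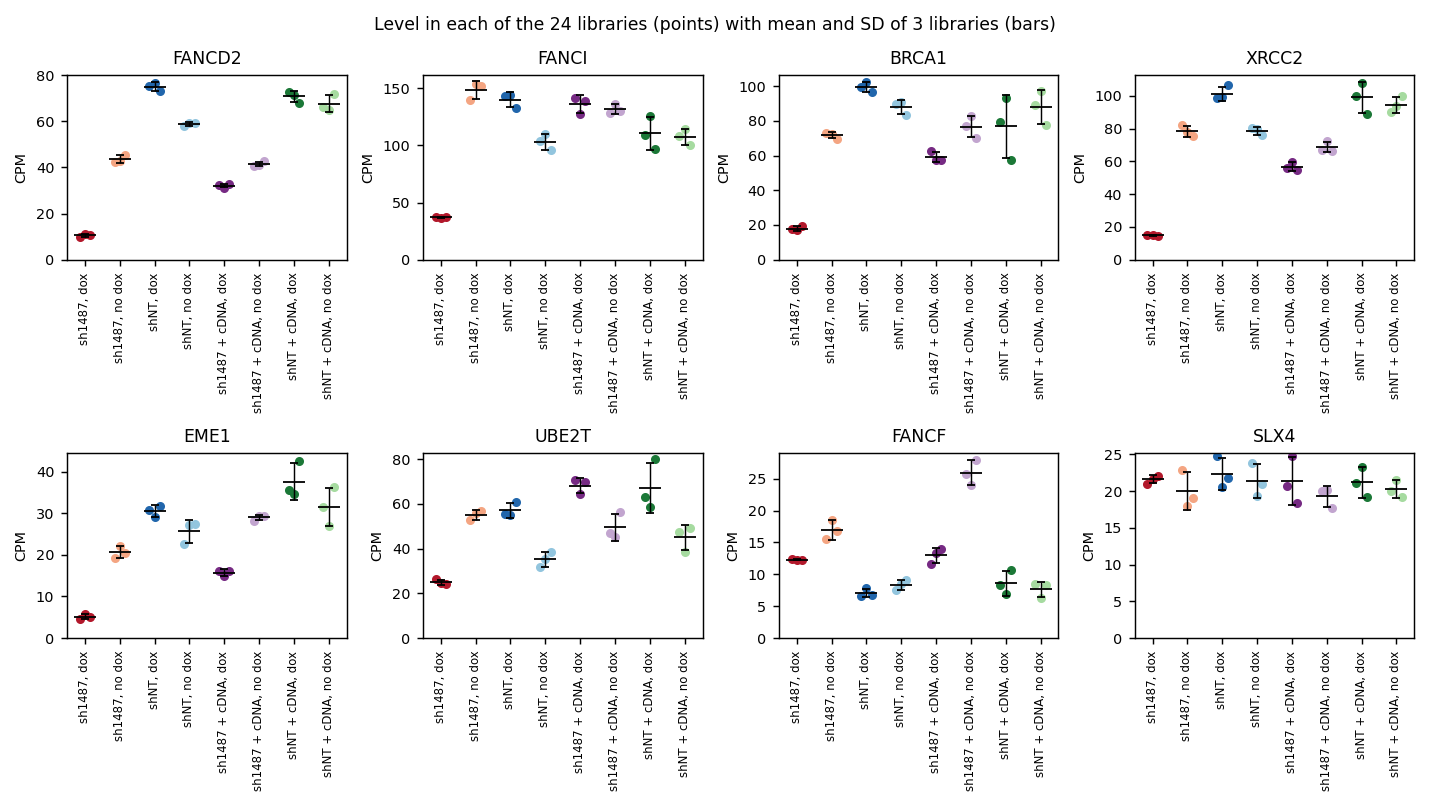
CPM of FANCD2, FANCI, BRCA1, XRCC2, EME1, UBE2T, FANCF and SLX4 (y axes) in each of the 24 libraries (points) of the 8 groups (x axes); bars give the mean and SD of 3 libraries. In the panels of FANCD2, FANCI, BRCA1, XRCC2, EME1 and UBE2T the sh1487 libraries on doxycycline without cDNA are the lowest of all groups. SLX4 overlaps between groups.

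Levels can be set beside each other only per length, here as mean CPM divided by the gene length in kilobases that the table gives. On this scale UBE2T was the highest member, at 23.4 CPM per kilobase in sh1487 libraries on doxycycline and 51.7 without it. RAD54B was the lowest, at 0.333 and 0.867 CPM per kilobase in these groups. FANCI stood at 4.76 and 19.1, FANCD2 at 1.26 and 5.2, BRCA1 at 2.01 and 8.03, and BRCA2 at 1.13 and 5 CPM per kilobase. FANCI was thus above its partner FANCD2 per length in both groups. The deposited lengths differ from the exon union of GENCODE release 29 for 12 members, among them UBE2T and BRCA1.

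In the sh1487 line that also carried the cDNA, doxycycline lowered members far less than in the line without it. The cDNA and the line that carried it cannot be told apart in this contrast. Of 38 members 19 fell and 1, UBE2T, rose, against 31.3% and 28.3% of all genes. The median log2 change was −0.20, running from −0.95 for FANCF to 0.46 for UBE2T, beside −0.02 over all genes. In 22 members every library on doxycycline lay below every library without it (35.8% of all genes). Directly compared, the effect with cDNA minus the effect without it was above 0 past the test for 30 members and below 0 for 2, FANCF and RAD52, against 27.2% and 32.9% of all genes. The median of this difference was 1.11 on the log2 scale, with XRCC2 (2.05 ± 0.09 SE, limma adjusted p = 2.91e-14) and FANCI (2.02 ± 0.11 SE, limma adjusted p = 6.7e-13) at the top. For FANCE, NBN, RMI1, SLX4, ATM and ATR the difference did not pass. Of these, RMI1 (−0.81 ± 0.081 SE with cDNA, −0.99 ± 0.081 without) and ATR (−0.57 ± 0.083 with cDNA, −0.67 ± 0.083 without) had fallen in both lines; the 95% intervals of their differences were −0.05 to 0.42 and −0.14 to 0.35. RAD52 lost its call when any of 11 of the 12 libraries was left out, all but replicate 1 of sh1487 with cDNA on doxycycline.

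**Figure D3:**
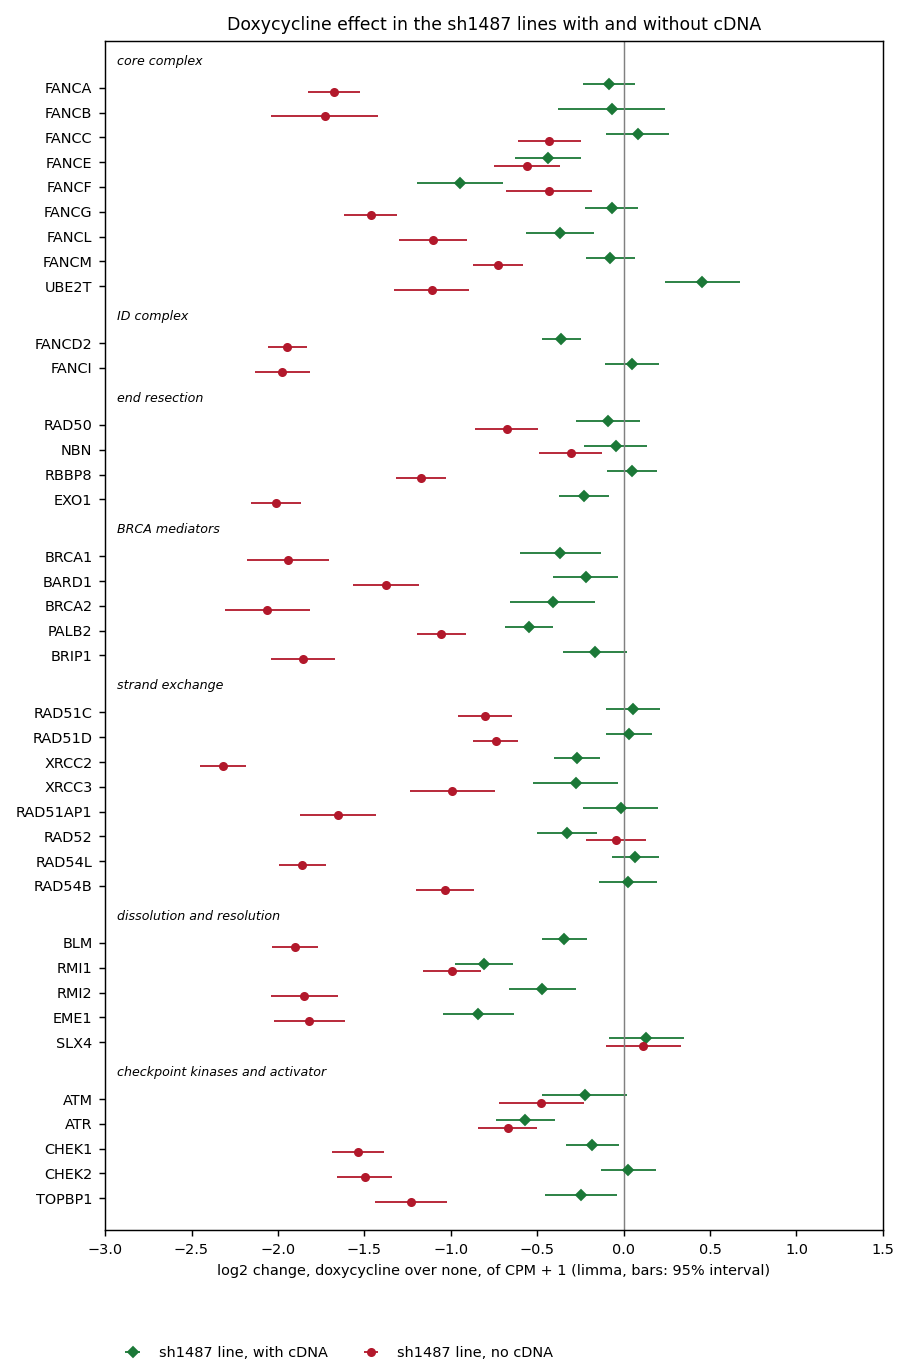
Log2 change of each member with doxycycline (x axis, of CPM + 1) in the sh1487 line with cDNA (diamonds) and in the sh1487 line without it (circles), grouped by role; bars are 95% intervals from limma, 3 libraries a group. Most diamonds lie nearer 0 than the circles, while those of FANCF and RAD52 lie further below it.

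The clamp and core genes showed the range of these responses. FANCD2 with cDNA had 32.3, 31.3 and 32.8 CPM in sh1487 libraries on doxycycline, against 40.9, 41.1 and 42.7 CPM without it, with no overlap. FANCD2 in the shNT line with cDNA had 72.8, 71.7 and 67.9 CPM on doxycycline, against 66.3, 64.8 and 71.8 CPM without it, with overlap. FANCD2 still fell (−0.36 ± 0.054 SE, limma adjusted p = 6.17e-06), while its partner FANCI had a log2 change of 0.05 ± 0.076 (SE) that did not pass (limma adjusted p = 0.593). FANCI with cDNA had 141.8, 128 and 139 CPM in sh1487 libraries on doxycycline, against 128, 137 and 129.7 CPM without it, with overlap. FANCI in the shNT line with cDNA had 109, 125 and 96.8 CPM on doxycycline, against 108, 114 and 99.97 CPM without it, with overlap. Both clamp genes thus fell without the cDNA, and FANCD2 passed with it where FANCI did not; the difference between the pair was not tested. FANCA with cDNA had 47.5, 52.1 and 48 CPM in sh1487 libraries on doxycycline, against 51.1, 54.6 and 50.8 CPM without it, with overlap. FANCA in the shNT line with cDNA had 93.3, 87.9 and 105 CPM on doxycycline, against 69.8, 77.7 and 80.9 CPM without it, with no overlap. FANCA was at 94.3% of its sh1487 mean without doxycycline, a difference that did not pass (log2 change −0.08 ± 0.072 SE, limma adjusted p = 0.328). UBE2T with cDNA had 70.5, 64.3 and 69.6 CPM in sh1487 libraries on doxycycline, against 47, 45.3 and 56.5 CPM without it, with no overlap. UBE2T in the shNT line with cDNA had 62.9, 58.5 and 80.0 CPM on doxycycline, against 47.3, 38.6 and 49.2 CPM without it, with no overlap. UBE2T rose (0.46 ± 0.10 SE, limma adjusted p = 0.000721), the opposite of its fall without the cDNA. FANCF with cDNA had 11.6, 13.4 and 13.9 CPM in sh1487 libraries on doxycycline, against 25.7, 24 and 28 CPM without it, with no overlap. FANCF in the shNT line with cDNA had 8.29, 6.84 and 10.7 CPM on doxycycline, against 8.42, 6.24 and 8.25 CPM without it, with overlap. FANCF fell further than without the cDNA (−0.95 ± 0.12 SE, limma adjusted p = 6.31e-07; difference of effects −0.52 ± 0.17 SE, adjusted p = 0.0118). Its level on doxycycline was close in both sh1487 lines, at 13 ± 1.2 CPM with the cDNA and 12.3 ± 0.11 CPM without it, and the lines differed without doxycycline.

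The BRCA genes mostly kept a smaller fall. BRCA1 with cDNA had 62.4, 57.4 and 57.4 CPM in sh1487 libraries on doxycycline, against 77.2, 82.5 and 70.1 CPM without it, with no overlap. BRCA1 in the shNT line with cDNA had 79.6, 93.3 and 57.5 CPM on doxycycline, against 89.1, 97.4 and 77.6 CPM without it, with overlap. BRCA1 was at 77.1% of its sh1487 mean without doxycycline, a fall (log2 change −0.37 ± 0.11 SE, limma adjusted p = 0.00799). BRCA2 with cDNA had 55.5, 52.3 and 51.8 CPM in sh1487 libraries on doxycycline, against 70.0, 78.4 and 65.3 CPM without it, with no overlap. BRCA2 in the shNT line with cDNA had 44.3, 54 and 33.4 CPM on doxycycline, against 48.8, 53.6 and 40.6 CPM without it, with overlap. BRCA2 was at 74.7%, a fall (log2 change −0.41 ± 0.12 SE, limma adjusted p = 0.0048). PALB2 with cDNA had 26.9, 24.1 and 25.4 CPM in sh1487 libraries on doxycycline, against 36.9, 38.4 and 37.6 CPM without it, with no overlap. PALB2 in the shNT line with cDNA had 28.3, 30.1 and 25.3 CPM on doxycycline, against 29.8, 28.7 and 25.5 CPM without it, with overlap. PALB2 was at 67.7%, a fall (log2 change −0.55 ± 0.068 SE, limma adjusted p = 5.12e-07). BARD1 with cDNA had 15.3, 13.2 and 14.7 CPM in sh1487 libraries on doxycycline, against 16.1, 18.4 and 16.4 CPM without it, with no overlap. BARD1 in the shNT line with cDNA had 19.8, 21.1 and 16 CPM on doxycycline, against 21.2, 22 and 18 CPM without it, with overlap. BARD1 passed narrowly (−0.22 ± 0.092 SE, limma adjusted p = 0.043), and its call was lost without replicate 2 or 3 of either sh1487 group with cDNA. BRIP1 with cDNA had 52.9, 48.7 and 49 CPM in sh1487 libraries on doxycycline, against 56.3, 57.8 and 55.2 CPM without it, with no overlap. BRIP1 in the shNT line with cDNA had 57, 66.3 and 47.6 CPM on doxycycline, against 63.9, 68.1 and 57.3 CPM without it, with overlap. BRIP1 did not pass (−0.17 ± 0.089 SE, limma adjusted p = 0.111).

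With the cDNA, some strand exchange and resection genes still fell in the sh1487 line on doxycycline, and others did not pass. XRCC2 with cDNA had 55.7, 59.8 and 54.6 CPM in sh1487 libraries on doxycycline, against 67.1, 72.2 and 66.5 CPM without it, with no overlap. XRCC2 in the shNT line with cDNA had 100.1, 108 and 89.1 CPM on doxycycline, against 90.2, 93.5 and 99.9 CPM without it, with overlap. XRCC2 was at 82.6% of its mean without doxycycline in the sh1487 line with cDNA, a fall (log2 change −0.27 ± 0.064 SE, limma adjusted p = 0.000903), against 19% in the line without cDNA. RAD54L with cDNA had 29.2, 31.6 and 30.5 CPM in sh1487 libraries on doxycycline, against 28.8, 28.7 and 29.3 CPM without it, with overlap. RAD54L in the shNT line with cDNA had 24.9, 27 and 21.5 CPM on doxycycline, against 21.8, 23.4 and 22 CPM without it, with overlap. RAD54L did not pass (0.07 ± 0.066 SE, limma adjusted p = 0.381). RAD51AP1 with cDNA had 54.7, 47.1 and 55.3 CPM in sh1487 libraries on doxycycline, against 50.7, 52.7 and 55.4 CPM without it, with overlap. RAD51AP1 in the shNT line with cDNA had 47, 52.5 and 36.6 CPM on doxycycline, against 56.4, 56.8 and 48.7 CPM without it, with overlap. RAD51AP1 did not pass either (−0.02 ± 0.11 SE, limma adjusted p = 0.896). RAD52 with cDNA had 19.1, 16.8 and 17 CPM in sh1487 libraries on doxycycline, against 22.5, 22.7 and 21.8 CPM without it, with no overlap. RAD52 in the shNT line with cDNA had 21.4, 19.4 and 27.5 CPM on doxycycline, against 19.7, 20.8 and 22.3 CPM without it, with overlap. RAD52, which did not pass without the cDNA, fell with it (−0.33 ± 0.084 SE, limma adjusted p = 0.00201). EXO1 with cDNA had 70.4, 61.2 and 69.3 CPM in sh1487 libraries on doxycycline, against 77.9, 79 and 79 CPM without it, with no overlap. EXO1 in the shNT line with cDNA had 49.5, 55.5 and 47.5 CPM on doxycycline, against 53, 55.1 and 47.9 CPM without it, with overlap. EXO1 fell (−0.23 ± 0.07 SE, limma adjusted p = 0.00696), a call lost without replicate 2 of sh1487 with cDNA on doxycycline, or with totals without mitochondrial genes. RAD50 with cDNA had 102, 94.8 and 97.8 CPM in sh1487 libraries on doxycycline, against 102, 108 and 104 CPM without it, with overlap. RAD50 in the shNT line with cDNA had 98.8, 117 and 84.6 CPM on doxycycline, against 108, 121 and 96.5 CPM without it, with overlap. RAD50 did not pass (−0.09 ± 0.089 SE, limma adjusted p = 0.4). NBN with cDNA had 71.1, 63.7 and 67.7 CPM in sh1487 libraries on doxycycline, against 69.2, 72.4 and 67.6 CPM without it, with overlap. NBN in the shNT line with cDNA had 77.8, 93.3 and 66.7 CPM on doxycycline, against 84.5, 85.4 and 71.3 CPM without it, with overlap. NBN did not pass (−0.05 ± 0.088 SE, limma adjusted p = 0.666). MRE11A with cDNA had 44.3, 44.2 and 43.6 CPM in sh1487 libraries on doxycycline, against 61.1, 67.5 and 65.3 CPM without it (log2 change −0.54 ± 0.062 SE, limma adjusted p = 1.51e-07). MRE11A in the shNT line with cDNA had 82.4, 87.4 and 81.2 CPM on doxycycline, against 86.9, 89.9 and 81.6 CPM without it. XRCC3, at −0.28 ± 0.12 (SE, limma adjusted p = 0.0481), lost its call in 11 of 16 other settings, among them without any single library of the 6 but replicate 2 on doxycycline.

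With cDNA, 4 of the 5 genes that separate joined molecules fell, as did 3 of the 5 checkpoint genes, where 31.3% of all genes fell. BLM with cDNA had 39.2, 36.7 and 40.0 CPM in sh1487 libraries on doxycycline, against 46.6, 49.1 and 52.2 CPM without it, with no overlap. BLM in the shNT line with cDNA had 40.7, 45 and 44.7 CPM on doxycycline, against 45.9, 39.4 and 42.3 CPM without it, with overlap. BLM was at 78.4% of its sh1487 mean without doxycycline, a fall (log2 change −0.34 ± 0.063 SE, limma adjusted p = 7.7e-05). RMI2 with cDNA had 29.8, 32.4 and 31 CPM in sh1487 libraries on doxycycline, against 43, 39.1 and 48.5 CPM without it, with no overlap. RMI2 in the shNT line with cDNA had 56.4, 50.7 and 68.4 CPM on doxycycline, against 56.2, 49.1 and 56.8 CPM without it, with overlap. RMI2 was at 71.3%, a fall (log2 change −0.47 ± 0.093 SE, limma adjusted p = 0.000172). EME1 averaged 15.7 ± 0.745 CPM in sh1487 libraries with cDNA on doxycycline and 29 ± 0.653 CPM without it (SD, n = 3 each), a fall (log2 change −0.84 ± 0.10 SE, limma adjusted p = 2.08e-07). RMI1 averaged 41.2 ± 2.82 and 72.7 ± 0.651 CPM in these groups, a fall (log2 change −0.81 ± 0.081 SE, limma adjusted p = 2.2e-08). SLX4 with cDNA had 20.7, 24.8 and 18.4 CPM in sh1487 libraries on doxycycline, against 19.98, 20.2 and 17.6 CPM without it, with overlap. SLX4 in the shNT line with cDNA had 21.1, 23.3 and 19.1 CPM on doxycycline, against 20.04, 21.6 and 19.2 CPM without it, with overlap. SLX4 did not pass (0.13 ± 0.10 SE, limma adjusted p = 0.289). ATR with cDNA had 47.8, 39.1 and 42.9 CPM in sh1487 libraries on doxycycline, against 62.8, 68.5 and 62.1 CPM without it, with no overlap. ATR in the shNT line with cDNA had 48.7, 53.8 and 48 CPM on doxycycline, against 49.4, 54.4 and 43 CPM without it, with overlap. ATR was at 67.1%, a fall (log2 change −0.57 ± 0.083 SE, limma adjusted p = 4.43e-06). ATM with cDNA had 84.6, 77.2 and 78.2 CPM in sh1487 libraries on doxycycline, against 90.4, 104 and 87.2 CPM without it, with no overlap. ATM in the shNT line with cDNA had 66.4, 83.5 and 51.8 CPM on doxycycline, against 82.5, 93.3 and 73.6 CPM without it, with overlap. ATM did not pass (−0.23 ± 0.12 SE, limma adjusted p = 0.104). CHEK1 with cDNA had 47.1, 43.2 and 45.9 CPM in sh1487 libraries on doxycycline, against 50.6, 50.9 and 53.2 CPM without it, with no overlap. CHEK1 in the shNT line with cDNA had 46.4, 50.7 and 39.1 CPM on doxycycline, against 52.3, 50.5 and 46 CPM without it, with overlap. CHEK1 passed narrowly (−0.18 ± 0.073 SE, limma adjusted p = 0.0384), and its call was lost without any single library of the 6 except replicate 1 on doxycycline. CHEK2 with cDNA had 51.9, 50.1 and 53.8 CPM in sh1487 libraries on doxycycline, against 49.3, 49 and 54.6 CPM without it, with overlap. CHEK2 in the shNT line with cDNA had 68.4, 62.4 and 76.7 CPM on doxycycline, against 56.6, 50.2 and 59.7 CPM without it, with no overlap. CHEK2 did not pass (0.03 ± 0.076 SE, limma adjusted p = 0.771). TOPBP1 passed (−0.25 ± 0.10 SE, limma adjusted p = 0.0394), a call lost without replicate 2 or 3 of either group.

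In the shNT line with cDNA, limma fitted on its 6 libraries called no member with doxycycline, where 3.95% of all genes passed. At an unadjusted p under 0.05 there were 6 members, all higher, where 13.9% of all genes were higher and 11.5% lower. On recovered reads edgeR called 0 (3.61% of all genes) and DESeq2 called 2, RBBP8 and UBE2T (13.1%). With the replicate number as a block, which takes same-numbered libraries as pairs, 10 members were higher and 5 lower past the test. In that fit 21.5% of all genes were higher and 22.4% lower. Residuals of same-numbered libraries correlated at 0.02, 0.82 and 0.84, so the pairing is uncertain. The libraries of this line varied more than those of the others, as the BRCA1 values show, and in 8 members every library on doxycycline still lay above every library without it (17.6% of all genes). The difference of effects between sh1487 and shNT with cDNA was below 0 past the test for 15 members and above it for none, against 20.1% and 17.5% of all genes; none passed upward at an unadjusted p under 0.05, with edgeR or with DESeq2. FANCF (−1.09 ± 0.20 SE, limma adjusted p = 0.00133), EME1 (−1.09 ± 0.15 SE, limma adjusted p = 0.000162), RMI1 (−0.70 ± 0.13 SE, limma adjusted p = 0.00181) and ATR (−0.61 ± 0.13 SE, limma adjusted p = 0.0042) were the 4 furthest below 0. The calls of FANCG, FANCL, RAD52, XRCC2 and XRCC3 were each lost without several single libraries, and the number called ran from 10 to 16 over these removals.

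The lines differed before any doxycycline. Between sh1487 and shNT without cDNA, 15 members were higher and 9 lower in sh1487, against 32.1% and 34.1% of all genes, with a median log2 difference of 0.02. In either direction 24 of the 38 members were called, and 66.2% of all genes, so this count does not set the members apart. FANCB averaged 14.4 ± 0.316 CPM in sh1487 libraries and 5.91 ± 1.07 CPM in shNT libraries (1.16 ± 0.15 SE, limma adjusted p = 4.83e-07; SD, n = 3 each). FANCF averaged 17 ± 1.52 CPM in sh1487 libraries and 8.35 ± 0.781 CPM in shNT libraries (0.94 ± 0.12 SE, limma adjusted p = 4.37e-07). In the other direction FANCM was lower in sh1487, at 13.9 ± 1.01 CPM against 19.8 ± 1.06 CPM in shNT (−0.49 ± 0.069 SE, limma adjusted p = 2.01e-06), and so was FANCD2, at 43.5 ± 1.75 CPM against 58.8 ± 0.902 CPM in shNT (−0.43 ± 0.054 SE, limma adjusted p = 4.28e-07). FANCI was higher in sh1487 (0.52 ± 0.076 SE, limma adjusted p = 3.08e-06). The calls of BRCA1, EME1, FANCA, FANCG and PALB2 were each lost without single libraries: FANCA without any but replicate 3 of sh1487, BRCA1 without replicate 1 or 2 of shNT or 3 of sh1487, EME1 without replicate 3 of shNT or 1 of sh1487, FANCG without replicate 1 or 3 of either, and PALB2 without replicate 1 or 3 of shNT or 2 or 3 of sh1487. Hairpin and line cannot be told apart in this comparison.

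Lines with and without the cDNA were also compared off doxycycline, where cDNA and line cannot be told apart either. In the sh1487 lines 6 of 38 members were higher with the cDNA and 1 lower, against 13.3% and 10.3% of all genes. Fitted on only these groups, limma called 14 members, 10 higher and 4 lower, against 19% and 17.8% of all genes. ATR averaged 64.5 ± 3.54 CPM with the cDNA and 42.6 ± 1.78 CPM without it (0.59 ± 0.083 SE, limma adjusted p = 2.64e-05; SD, n = 3 each). FANCF, EME1 and RMI1 were higher with the cDNA by 0.58 ± 0.12, 0.48 ± 0.10 and 0.36 ± 0.081 (log2, SE), with limma adjusted p of 0.0011, 0.00122 and 0.00261, and EXO1 by 0.25 ± 0.07 (limma adjusted p = 0.0115). ATR, FANCF, EME1 and RMI1 are also the 4 named above as furthest below 0 in the difference of effects with cDNA; that comparison shares the sh1487 libraries with cDNA and without doxycycline. FANCM (0.20 ± 0.069 SE, limma adjusted p = 0.0366) and XRCC2 (−0.19 ± 0.064 SE, limma adjusted p = 0.033) lost their calls without single libraries: FANCM without replicate 1 of sh1487 or 2 or 3 of sh1487 with cDNA, XRCC2 without replicate 1 or 2 of sh1487 or 1 or 3 of sh1487 with cDNA. In the shNT lines limma called no member on the 6 libraries (0.448% of all genes), and at an unadjusted p under 0.05 there were 13 higher (9.89% of all genes) and 0 lower (10.3%). On recovered reads edgeR called 1 (0.831% of all genes) and DESeq2 called 8 (4.94%). With the replicate number as a block, which takes same-numbered libraries as pairs, 8 were called, all higher. In that fit 4.82% of all genes were higher and 6.11% lower. Without replicate 2 of shNT with cDNA, 7 were called (7.01% of all genes).

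Other DNA repair genes were set beside the members with the same difference of effects, sh1487 minus shNT without cDNA, in which 34.4% of all genes were below 0 and 36.2% above it past the test. Of 72 listed names of further recombination, Fanconi and checkpoint genes 61 were tested; 34 were below 0 and 11 above it past the test, with a median of −0.38. TIMELESS, of the fork protection complex, had a difference of −2.23 ± 0.075 (SE, limma adjusted p = 7.75e-17), and the resection nuclease DNA2 −1.81 ± 0.10 (SE, limma adjusted p = 1.87e-13). Non-homologous end joining, which rejoins ends without a template, had 8 of 17 below 0 and 4 above it, with a median of −0.26. Its ligase gene LIG4 lay above 0 (1.27 ± 0.11 SE, limma adjusted p = 1.15e-09) and the Ku subunits XRCC5 (−0.89 ± 0.087) and XRCC6 (−0.86 ± 0.089) below it, with limma adjusted p of 6.1e-09 and 1.38e-08. Mismatch repair had 3 of 7 below 0 and 2 above, with a median of −0.14. Nucleotide excision repair had 7 of 17 below 0 and 3 above, with a median of −0.25. Base excision repair had 9 of 18 below 0 and 3 above, with a median of −0.40; the glycosylases UNG (−2.08 ± 0.079 SE) and NEIL3 (−2.04 ± 0.10 SE) were its lowest, with limma adjusted p of 5.97e-16 and 3.41e-14.

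Without the cDNA, the RNAs of proliferation markers were lower, as those of the members were. All 16 proliferation markers lay below 0 in that difference, with a median of −2.18, lower than the members' −1.66; the replication helicase gene MCM6 averaged 13.8 ± 0.539 CPM in sh1487 libraries on doxycycline and 88.2 ± 3.91 CPM without it (SD, n = 3 each). With the cDNA, 6 of the 16 markers rose and 4 fell in the sh1487 line, where 28.3% of all genes rose and 31.3% fell. The median log2 change of these markers was 0.01, beside −0.20 for the members. Of 19 E2F and DREAM regulators, which govern cell cycle transcription, 15 lay below 0 past the test and none above it. The median of these regulators was −0.51, beside −1.66 for the members. E2F1 stood well below that median, at −2.27 ± 0.10 (SE, limma adjusted p = 9.79e-15). E2F2 was the lowest of the 19, at −2.52 ± 0.14 (SE, limma adjusted p = 6.79e-13). Of 17 p53 targets 6 lay below and 6 above 0 past the test, close to the shares of all genes (34.4% and 36.2%). Cell cycle activity was not measured, and its part in the members' falls was not tested.

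**Figure D4:**
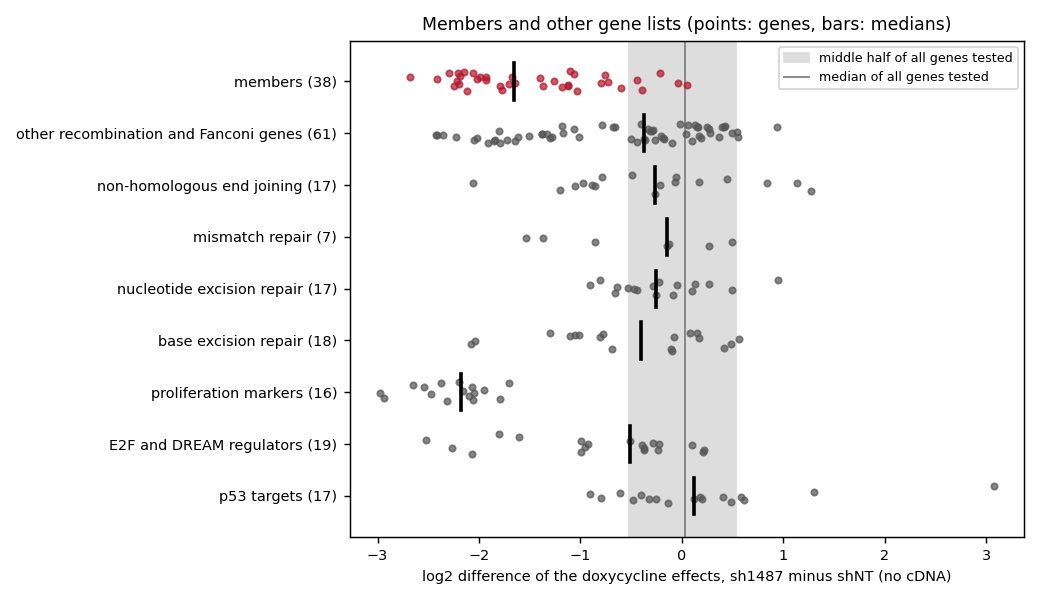
Log2 difference of the doxycycline effects, sh1487 minus shNT without cDNA (x axis), for each tested gene (points) of the members and of 8 other lists (rows), with the median of each list as a bar; the grey line and band are the median and the middle part, between the quartiles, of all 13832 genes tested. The members' median is −1.66, that of the proliferation markers −2.18, and the other lists' medians lie between −0.51 and 0.12.

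Because the members moved together, their promoters were read for short motifs. RefSeq promoters (build GRCh38.p14, 250 bases before to 50 after the start) were matched for 33 of 38 members and for 10923 genes tested. The E2F letters TTTCGCGC, TTTGGCGC, TTTCCCGC or TTTGCCGC, on either strand, occurred in 6 of 33 member promoters (18.2%) and in 5.25% of all 10923. Those 6 were FANCA, FANCC, FANCD2, EXO1, XRCC2 and TOPBP1. Their median difference was −2.23 on the log2 scale (range −2.68 to −0.60). The 27 members without these letters had a median of −1.39 (range −2.21 to 0.05). These ranges overlap, and the difference between the sets was not tested. The letters CCAAT were in 14 member promoters (42.4%, against 37% of all), TTTGAA in 4 (12.1%, against 10.1%), and the E-box CACGTG in 3 (9.09%, against 9.91%). The TCF/LEF letters CTTTGATC and CTTTGATG were in none of the 33 and in 0.76% of all. None of these motifs contains another. A match of letters is a description and not a binding site. The promoters below are those of the 3 members with the largest negative difference for which one was matched (XRCC2, FANCD2, EXO1) and of the 3 with the smallest (FANCF, RAD52, SLX4), shown to let the letters be compared between the members that moved most and least. They are XRCC2 chr7:152676092-152676391 on the minus strand, FANCD2 chr3:10026187-10026486 on the plus strand, EXO1 chr1:241847954-241848253 on the plus strand, FANCF chr11:22625774-22626073 on the minus strand, RAD52 chr12:949645-949944 on the minus strand and SLX4 chr16:3611557-3611856 on the minus strand; capitals mark the motifs searched, 5′ to 3′ on the gene's strand.
XRCC2: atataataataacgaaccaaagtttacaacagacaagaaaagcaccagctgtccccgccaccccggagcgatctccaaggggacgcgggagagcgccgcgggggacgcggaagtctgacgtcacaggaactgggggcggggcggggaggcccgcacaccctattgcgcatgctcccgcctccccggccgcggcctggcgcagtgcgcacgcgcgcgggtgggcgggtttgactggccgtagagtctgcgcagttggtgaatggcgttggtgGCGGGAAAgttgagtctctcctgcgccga
FANCD2: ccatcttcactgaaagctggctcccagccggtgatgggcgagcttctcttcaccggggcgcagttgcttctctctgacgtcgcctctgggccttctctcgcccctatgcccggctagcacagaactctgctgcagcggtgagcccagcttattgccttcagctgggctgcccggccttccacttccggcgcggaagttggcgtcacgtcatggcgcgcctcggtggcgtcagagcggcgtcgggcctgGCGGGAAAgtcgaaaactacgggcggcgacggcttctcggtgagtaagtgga
EXO1: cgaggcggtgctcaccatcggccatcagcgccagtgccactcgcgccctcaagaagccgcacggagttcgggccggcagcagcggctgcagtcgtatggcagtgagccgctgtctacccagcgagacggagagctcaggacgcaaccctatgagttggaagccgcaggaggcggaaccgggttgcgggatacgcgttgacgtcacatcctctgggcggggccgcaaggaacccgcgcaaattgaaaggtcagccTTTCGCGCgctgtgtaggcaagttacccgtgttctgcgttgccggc
FANCF: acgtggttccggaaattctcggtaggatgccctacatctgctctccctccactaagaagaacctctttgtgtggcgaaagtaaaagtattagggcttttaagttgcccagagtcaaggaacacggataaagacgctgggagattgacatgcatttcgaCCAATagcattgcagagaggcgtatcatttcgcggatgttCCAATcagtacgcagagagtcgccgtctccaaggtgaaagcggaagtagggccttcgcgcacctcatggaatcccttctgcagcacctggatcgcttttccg
RAD52: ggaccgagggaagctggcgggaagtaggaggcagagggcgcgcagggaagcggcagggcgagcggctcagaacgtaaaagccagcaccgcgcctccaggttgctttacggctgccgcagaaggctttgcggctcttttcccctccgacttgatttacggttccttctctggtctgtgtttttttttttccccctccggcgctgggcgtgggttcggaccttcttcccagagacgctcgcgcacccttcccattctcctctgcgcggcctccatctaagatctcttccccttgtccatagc
SLX4: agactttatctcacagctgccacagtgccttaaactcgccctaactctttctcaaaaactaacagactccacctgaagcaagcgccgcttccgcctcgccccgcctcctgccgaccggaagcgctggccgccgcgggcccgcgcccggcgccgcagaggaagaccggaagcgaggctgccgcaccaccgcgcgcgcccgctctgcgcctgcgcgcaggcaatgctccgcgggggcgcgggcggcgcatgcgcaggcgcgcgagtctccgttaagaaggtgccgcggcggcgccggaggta
XRCC2, FANCD2 and EXO1 each hold a single E2F match, at bases 22 to 29 after the start, from base −2 to base 6, and at bases 5 to 12. FANCF holds CCAAT at −92 and −52, and no motif searched was found in the RAD52 and SLX4 windows.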

How the data were processed

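Poly(A) RNA libraries were made with a stranded mRNA kit, per the labels' protocols. The submitters' processing notes name GRCh38, featureCounts, STAR 2.7.7a, Trimmomatic 0.39, edgeR 4.0.2 and Subread 2.4.2, with no role or order; the annotation release and the use of strand in counting are not given in the sources used here, and host reads were not separated here. The deposited table gives a signal in CPM per gene and library, scaled by the authors to an effective library size (column sums 933631.7 to 1137971.1). Dividing a column by the CPM worth 1 read recovered whole reads, within 0.001, for 100% of its values.

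Tests covered 13832 of the 14119 genes, those reaching 1 CPM in 3 or more libraries, all 38 members included. Log2 of CPM plus 1 was fitted by group mean with limma 3.58.1 (trend, R 4.3.3) over all 24 libraries, except in comparisons with a shNT group with cDNA, fitted on their own groups because these vary more; p was adjusted by Benjamini-Hochberg over genes tested, and calls were made at 0.05. Other settings were recovered reads tested with edgeR 4.0.16 and with DESeq2 1.42.0, a pseudocount of 0.1 or 5, a filter at a mean of 5 CPM or none, DESeq2 size factors, totals without mitochondrial genes, the other set of libraries, a replicate block, and each library left out.

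Replicate numbers were checked by correlating residuals of same-numbered libraries. Between shNT with cDNA and shNT without it, both off doxycycline, they were 0.11, 0.16 and 0.65, all above 0.1. By this rule the numbers could be taken as pairs there, but replicate 2 with cDNA correlated better with replicate 1 without it (0.53). Pairing is thus uncertain, and the main fit used no replicate block. In each other comparison of 2 groups at least 1 correlation was not above 0.1.

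Every member may be named; values in every library are given for members picked by role and for the 5 at each end of the difference between hairpins, and up to 4 genes per other list by smallest p. The members, lists, comparisons and rules were chosen with earlier results of these data known. Positions are those of GENCODE release 29 (GRCh38), in which 14106 of the gene IDs occur. Single-gene values of some listed repair genes are not reported here.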

Additional observations from a re-analysis of the deposited data

Results flagged for a closer look

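The effect of doxycycline differed between groups by a test of the difference itself in 3 comparisons. Between sh1487 and shNT without cDNA, limma called 35 of the 38 members, all below 0, where 70.6% of all genes were called in either direction. Between these hairpins with cDNA it called 15, all below 0. There 37.6% of all genes were called in either direction and 20.1% below 0. Between the sh1487 lines with and without cDNA it called 32, of which 30 were above 0 and 2 below, where 60.1% of all genes were called. Groups of 3 libraries are too small for a test of single outlying libraries.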

How the results depend on the processing

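Over 6764 values of single members under alternative settings, 6530 kept their side of the threshold, 147 lost a call, 87 gained one and none reversed a called direction; 173 values called in neither fit changed sign. The number of members called stayed within 1.5 times the main number in every setting, with these exceptions, whose cause was not tested. For doxycycline in shNT carrying the cDNA, called 0 times, DESeq2 on recovered reads called 2, the fit over all 24 libraries 9 (31.9% of all genes) and the replicate block 15 (43.9% of all genes), of which 10 were higher and 5 lower (BRCA1, RAD51AP1, BRIP1, ATM and TOPBP1). For the cDNA in the sh1487 line without doxycycline, called 7 times, the fit on only the groups compared called 14. For the cDNA in shNT off doxycycline, called 0 times, edgeR called 1, DESeq2 8, the fit over all 24 libraries 7 (5.46% of all genes) and the replicate block 8. With single libraries left out, that count ran from 0 to 7, against 36 throughout for doxycycline with sh1487, 15 to 18 with shNT, 34 to 35 for their difference, 16 to 19 with sh1487 and cDNA, 0 throughout with shNT and cDNA, 10 to 16 for the difference of these, 31 to 32 between the sh1487 lines with and without cDNA, 20 to 22 between the hairpins without doxycycline, and 5 to 7 for the cDNA in sh1487. For doxycycline in shNT carrying the cDNA, same-numbered libraries correlated at 0.02, 0.82 and 0.84, so they share only a number by the rule used, and the libraries of 2 of the 3 numbers correlated best with their own number. In the comparisons not named here the replicate block changed the count by at most 1. Totals without mitochondrial genes moved the median of all genes by 0.12 (log2) for doxycycline with sh1487 and by 0.11 for its difference from shNT. They moved it by 0.07 for doxycycline with sh1487 and cDNA and by 0.06 for its difference from shNT with cDNA. Between the sh1487 lines with and without cDNA the move was −0.06. With these totals 14 members instead of 19 fell with sh1487 and cDNA, as BARD1, CHEK1, EXO1, TOPBP1 and XRCC3 lost their calls. Of all genes 26% instead of 31.3% fell there. In the difference of this effect from shNT with cDNA 11 members instead of 15 were below 0, as FANCG, FANCL, RAD52 and XRCC2 lost their calls. In that difference 16.2% instead of 20.1% of all genes were below 0. In every library 3 reads stood at no more than 0.0711 CPM, below every member value.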
